A study of Mus musculus with 32 samples.

Results

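Haematopoietic stem and progenitor cells (HSPCs) that had shared the marrow with a leukaemia were compared, at rest, with HSPCs that had not. The comparison used 8 of the 16 RNA sequencing libraries, chosen by their labels: 4 experienced libraries and 4 naive libraries from mice injected with phosphate-buffered saline (PBS). The labels call the experienced mice AF9+/+ and the naive mice AF9-/-. In both groups lethally irradiated C57BL/6J recipients (CD45.2) had received 800000 wild-type whole marrow cells (CD45.1+/2+) mixed with 200000 partner cells (CD45.1). The partner cells of experienced mice were homozygous for an inducible human MLL-AF9 fusion (iMLL-AF9) and for rtTA, the activator that doxycycline switches on. Those of naive mice were homozygous for rtTA and null for the fusion. From 6 to 8 weeks after the transplant doxycycline was given for 5 weeks to start the leukaemia, and it was then withdrawn for 4 weeks so that the disease regressed. The labels do not say separately that naive mice also received it. Marrow was taken 24 hours after PBS, and CD45.1+/2+ Lin- cKit+ Sca1+ cells were sorted, so the cells measured came from the wild-type donors in both groups. The sources used here give neither the age nor the sex of the mice, nor whether 1 replicate was 1 mouse or a pool. The p-values below therefore set differences against the spread between samples only, which may not be that between mice. For the gene tests that spread was estimated over all 16 libraries. The question was what past leukaemia leaves in normal HSPCs without a further challenge.

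HSPCs hold the stem cells that renew the blood and the first progenitors that lean toward lymphoid, myeloid, erythroid or megakaryocytic fates. MLL-AF9 joins the histone methyltransferase KMT2A (MLL) to MLLT3 (AF9) and keeps a self-renewal programme with Hoxa9 and Meis1 active in the leukaemic cells that carry it. Some stem and progenitor cells also display antigen on major histocompatibility complex (MHC) class II molecules, which are controlled as a group by the coactivator CIITA together with factors bound to the X and Y boxes of their promoters.

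The 4 naive libraries held 16.3 to 22.1 M (mega) RSEM expected counts and the 4 experienced libraries 11.0 to 18.5 M (exact two-sided permutation test, p = 0.143, and 0.514 after adjustment over 12 library measures). Experienced libraries 3 and 4 stood apart from the other 6. On the first principal component of the 8 libraries, which held 36.5% of the variance, they lay at 61.4 and 67.1, and the other 6 lay between −28.4 and −15.6. On the second component, 19.96% of the variance, they lay at opposite ends, at −56.9 and 52.7. The third component, 15.6%, set naive library 4 apart at 59.8. Mitochondrially encoded genes gave 5.94% of the counts of experienced library 4 and 2.06% to 3.25% of the others. Experienced libraries 1 and 2 correlated with the naive libraries at a mean r of 0.975 and 0.978, and with their own group at 0.956 and 0.960. List medians and gene differences that turn or move much without experienced libraries 3 and 4 are given a second time without them.

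**Figure D1:**
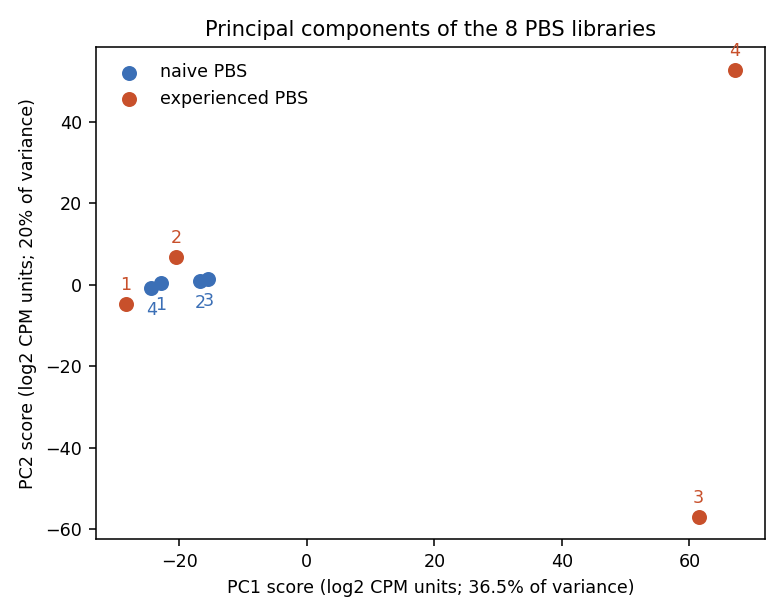
Each point is 1 library placed by its first 2 principal components (horizontal axis, 36.5% of the variance; vertical axis, 19.96%), computed from the log2 CPM values of tested genes, CPM being counts scaled to the library size. Experienced libraries 3 and 4 lie far to the right, at 61.4 and 67.1, and experienced libraries 1 and 2 lie beside the 4 naive libraries.

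No gene passed the test between experienced and naive HSPCs. Of 15186 genes, 0 (0%) were called by edgeR's quasi-likelihood test, for which a p adjusted by Benjamini-Hochberg had to be under 0.05, and the smallest adjusted p was 0.988. At an unadjusted p under 0.05 the same fit held 451 genes, of which 297 (1.96%) were higher and 154 (1.01%) lower in experienced HSPCs. That count of 451 depended on single libraries: it was 212 without experienced library 4, 286 without naive library 1, 834 without experienced library 2 and 916 without experienced library 1. In 277 genes (1.82%) every experienced library lay above every naive one, and in 337 genes (2.22%) every one lay below, in CPM, counts scaled to library sizes that were corrected by trimmed means (TMM). Those shares are the background for every list below. Other tools called few genes. DESeq2 called 2, Pet117 and Gm28539, both listed at 0 in all 4 naive libraries and in 2 of the 4 experienced ones. limma-voom with library quality weights called H2-Aa and H2-Ab1, lower in experienced HSPCs, and limma on log2(TPM + 1) called the non-coding RNA Rbakdn, also lower.

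What the libraries could resolve depended on expression. The median half-width of a gene's 95% interval was 0.52 on the log2 scale, a 1.43-fold difference. The whole interval lay within a 2-fold difference either way for 66.4% of genes, and for 93.8% of genes whose mean log2 CPM was 6 or more. For example, the log2 difference of Ptprc, which encodes CD45, was 0.13 with an interval from −0.18 to 0.43. For Myc, the growth regulator, it was 0.17 (−0.15 to 0.48). Intervals were wide for genes that differed between experienced libraries: that of Gata1, the erythroid master regulator, ran from 0.19 to 2.18 around a difference of 1.18, which was −0.25 without experienced libraries 3 and 4.

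**Figure D2:**
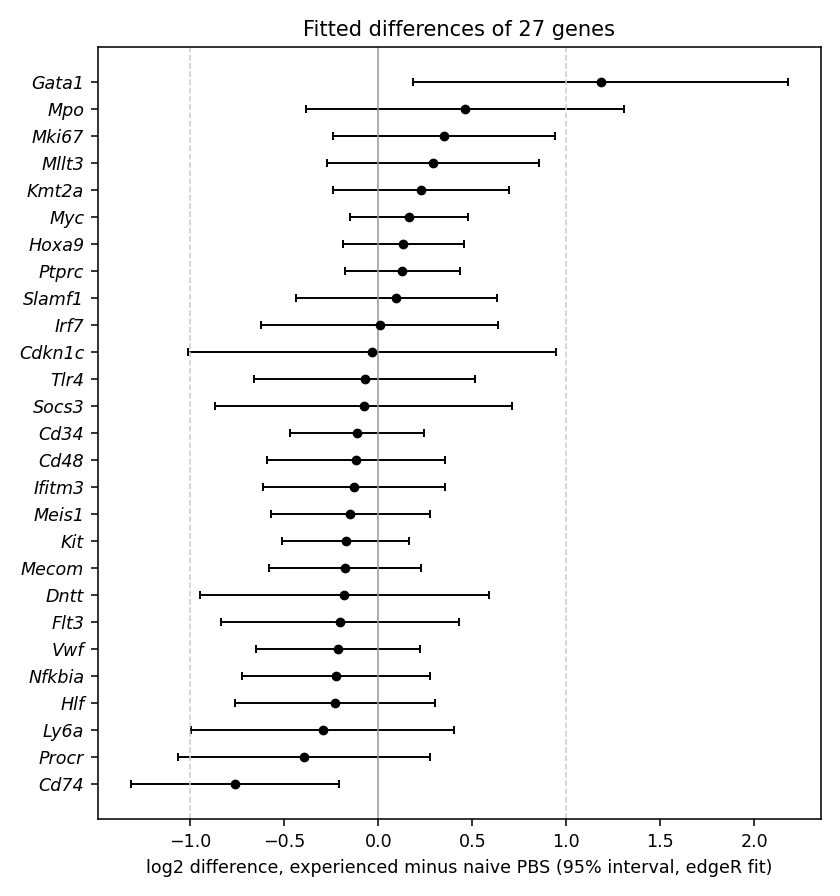
Log2 difference of experienced minus naive HSPCs after PBS (horizontal axis) for 27 genes chosen by name (vertical axis); points are fitted values and bars 95% intervals, 4 libraries per group. Most intervals cross 0, and those of Cd74 (−1.32 to −0.21) and Gata1 (0.19 to 2.18) do not; neither passed after adjustment over all genes.

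Genes of MHC class II presentation had lower levels in experienced HSPCs as a group. All 11 tested members of the 12 listed had a negative fitted log2 difference, 0 were called, and 6 were below 0.05 unadjusted. Their median log2 difference was −0.69, beside 0.00 for all tested genes. This was seen in the genes of the antigen-binding chains, in the invariant chain and in their coactivator. All 11 are named, beyond the 4 with the lowest p that the naming rule takes.

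The promoters of these genes are where CIITA acts, so the X and Y boxes are shown for the 4 members in which both could be found. A script searched both strands of the 300 bases around each RefSeq start (250 before, 50 after; GRCm38.p6) for an X-box-like motif CTNGNAAC and the Y box core TGATTGG, 0 to 30 bases apart. Of 12 listed members 9 had an entry, and 4 held the pair. Of all 32851 promoters 13.2% held the first motif, 7.82% the second and 0.256% the pair. Capitals mark the 2 motifs, X first, and each line runs 5′ to 3′ on the gene's strand.
H2-Aa, chr17:34287852-34287922, minus strand: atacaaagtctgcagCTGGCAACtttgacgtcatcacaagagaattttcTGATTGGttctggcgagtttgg
H2-Eb1, chr17:34305758-34305827, plus strand: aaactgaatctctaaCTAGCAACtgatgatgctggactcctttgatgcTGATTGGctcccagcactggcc
H2-DMb1, chr17:34153079-34153149, plus strand: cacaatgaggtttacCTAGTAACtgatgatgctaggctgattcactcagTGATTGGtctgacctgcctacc
H2-Ob, chr17:34238800-34238867, plus strand: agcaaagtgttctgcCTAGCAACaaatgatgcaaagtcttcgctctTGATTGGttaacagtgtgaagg
The motifs are 26 bases apart in H2-Aa and H2-DMb1, 25 in H2-Eb1 and 23 in H2-Ob. A match describes the letters only and is no evidence that a factor was bound here.

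Ciita, the coactivator, stood at 3.22, 3.53, 3.50 and 1.49 TPM (transcripts scaled for gene length and library) in naive libraries 1 to 4 and at 1.29, 1.51, 1.74 and 1.37 TPM in experienced libraries 1 to 4. The naive group was high except for library 4, and on the CPM scale the groups did not overlap. Its log2 difference was −1.01 (SE 0.33, n = 4 per group, unadjusted p = 0.0073 by edgeR). It was −1.13 without experienced libraries 3 and 4.

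H2-Ab1, the beta chain of the I-A molecule, had the lowest unadjusted p among the members. It stood at 118, 121, 134 and 65.5 TPM in the naive libraries and at 61.3, 62.5, 89.7 and 78.7 TPM in the experienced ones. Naive library 4 was the only naive library inside the experienced range. The log2 difference was −0.73 (SE 0.17, 95% interval −1.09 to −0.38, unadjusted p = 0.00044, adjusted p = 0.988 by edgeR's quasi-likelihood test). Leaving out 1 library at a time gave −0.87 to −0.64, and leaving out experienced libraries 3 and 4 gave −0.88.

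H2-Aa, the partner alpha chain, stood at 84.6, 101, 94.8 and 46.7 TPM in naive and at 33.2, 44.5, 64.1 and 26.5 TPM in experienced libraries. As in H2-Ab1, naive library 4 was low and overlapped the experienced group. Its log2 difference was −1.01 (SE 0.31, unadjusted p = 0.00462). H2-Eb1, the beta chain of I-E, stood at 41.3, 40.6, 50.8 and 22.1 TPM in naive and at 18.6, 21.8, 39.2 and 15.5 TPM in experienced libraries, a log2 difference of −0.76 (SE 0.25). These were −1.14 for H2-Aa and −1.002 for H2-Eb1 without experienced libraries 3 and 4. Experienced library 3 was the highest of its group in all 3 of these chains. Near-identical H2 genes share reads that RSEM divides by estimate, so single values of this family are uncertain.

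Cd74, the invariant chain that guides class II molecules to the endosome, stood at 153, 202, 213 and 66.7 TPM in naive and at 73.5, 86.1, 151 and 70.5 TPM in experienced libraries. Its log2 difference was −0.76 (SE 0.26), and −1.03 without experienced libraries 3 and 4. The peptide editors and the rest of the pathway showed smaller differences. H2-DMb1, a chain of the peptide-loading H2-M molecule, stood at 34.4, 33.0, 34.9 and 28.8 TPM against 26.5, 26.3, 22.5 and 12.1 TPM. The groups did not overlap, and the log2 difference was −0.69 (SE 0.32). It was −0.35 without experienced libraries 3 and 4. H2-Oa and H2-Ob, chains of the H2-O molecule that restrains peptide loading, differed by −0.47 and −0.21 on the log2 scale, and by −0.19 and 0.09 without experienced libraries 3 and 4. H2-DMa, the partner of H2-DMb1, differed by −0.25 (−0.11 without those libraries), and its groups did not overlap on the CPM scale although they did in TPM. Its mean in TPM was not lower, at 92.1 in naive and 92.9 in experienced libraries. Ctss, the protease that trims the invariant chain, and H2-DMb2 differed by −0.21 and −0.11, and by −0.15 and 0.16 without those libraries.

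**Figure D3:**
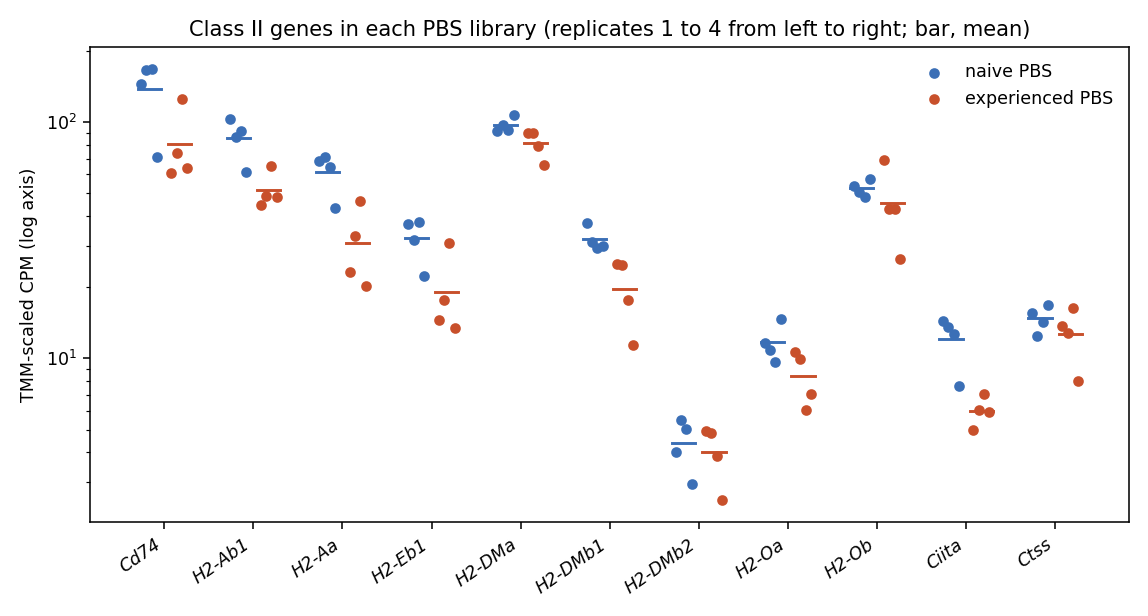
CPM on a log axis (vertical) of class II genes in the 4 naive and 4 experienced PBS libraries, replicates 1 to 4 from left to right; horizontal bars are group means. For H2-Ab1, H2-Aa, H2-Eb1 and Cd74 naive library 4 is the low point of the naive group, and for Ciita and H2-DMb1 the groups do not overlap.

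The list's median moved between −0.73 and −0.52 when 1 library was left out and was −0.35, with 2 members higher, without experienced libraries 3 and 4. Antigen-presenting cells carry much class II RNA, and in bulk RNA fewer cells of a type and less RNA per cell cannot be told apart.

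Markers of such cells were measured beside it. The monocyte and macrophage list had 11 of 18 tested members lower and a median log2 difference of −0.29, with a summed level of 183 to 227 TPM in naive and 177 to 301 TPM in experienced libraries. The dendritic cell list had 9 of 13 lower and a median of −0.14, with 294 to 413 TPM against 258 to 434 TPM. The B and plasma cell list had 6 of 15 lower and a median of 0.08, with 542 to 875 TPM against 329 to 2216 TPM. Without experienced libraries 3 and 4 these 3 medians were −0.44, 0.06 and 0.39. Members of the lists, picked after their values were seen to show both ends, ran from low to high: C1qa of macrophages reached 3.35 TPM and Ly6c2 of monocytes 112 TPM, Itgax (CD11c) 3.64 TPM and Flt3 132 TPM, and Cd79a of B cells 1.27 TPM and Ighm 655 TPM. No member of these 3 lists was at 0 in all 8 libraries. The part of such cells in the class II values was not tested.

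Both groups carried the genes of the sorting gate. Kit stood at 176 to 232 TPM in naive and 178 to 222 TPM in experienced libraries, with a log2 difference of −0.17 (−0.51 to 0.16). Ly6a, which encodes Sca1, stood at 69.6, 52.1, 48.9 and 70.9 TPM in naive and at 71.7, 78.1, 26.3 and 38.5 TPM in experienced libraries, so the lowest 2 values were experienced libraries 3 and 4. The log2 difference of −0.30 was 0.18 without them. Of 12 genes of the gate 8 were lower, with a median log2 difference of −0.12 (0.07 without experienced libraries 3 and 4).

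Genes of stem cell identity showed small differences with no common direction that held in all libraries. Of 32 tested members 21 were lower and 0 were called. The median log2 difference was −0.13, and 0.01 without experienced libraries 3 and 4. Mecom and Hlf, transcription factors of long-term stem cells, differed by −0.18 (−0.58 to 0.23) and −0.23 (−0.76 to 0.30). Slamf1 (CD150), a marker of stem cells, differed by 0.10 (−0.44 to 0.63), and Procr, another, by −0.40 (−1.07 to 0.27). Vwf, which marks platelet-biased stem cells, differed by −0.21 (−0.65 to 0.22). Mecom stood at 0.08 and Procr at −0.08 on the log2 difference scale without experienced libraries 3 and 4, and Hlf, Slamf1 and Vwf at −0.24, 0.13 and −0.26.

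The genes that MLL-AF9 drives in leukaemic cells were measured as a further list. Of 25 tested members 17 were higher and 0 were called or below 0.05 unadjusted. The median log2 difference was 0.07, and 0.10 without experienced libraries 3 and 4. Hoxa9, the homeobox gene of the self-renewal programme, stood at 50.5, 65.9, 74.2 and 56.4 TPM in naive and at 74.1, 77.1, 51.3 and 72.2 TPM in experienced libraries. The groups overlapped and the log2 difference was 0.13 (−0.19 to 0.45). Meis1, its cofactor, differed by −0.15 (−0.57 to 0.27). The 2 genes whose human counterparts form the fusion, Kmt2a and Mllt3, differed by 0.22 (−0.24 to 0.69) and 0.29 (−0.27 to 0.85). Without experienced libraries 3 and 4 the differences were 0.25 for Hoxa9, 0.00 for Meis1, 0.31 for Kmt2a and −0.03 for Mllt3. The tables hold mouse genes, so the human fusion transcript itself was not analysed here. Doxycycline had been withdrawn for 4 weeks, and naive HSPCs also expressed Hoxa9 and Meis1. The list therefore cannot tell how pure the sort was.

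Erythroid genes had the largest median difference of the 44 lists, and 2 libraries carried it. Of 21 tested members 17 were higher in experienced HSPCs, 12 of them below 0.05 unadjusted, and the median log2 difference was 1.26. In 0 members did the groups fail to overlap. The median was 0.39 without experienced library 4, and without libraries 3 and 4 it was −0.55 with 2 members higher. The mean log2 CPM of the list, set against the naive mean, was 0.23, 0.43, 0.20 and −0.87 in naive libraries 1 to 4 and −0.35, −0.43, 0.79 and 2.46 in experienced libraries 1 to 4.

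Car1, carbonic anhydrase of red cell progenitors, shows the pattern. It stood at 63.6, 88.3, 92.0 and 11.3 TPM in naive and at 34.9, 33.0, 389 and 1150 TPM in experienced libraries. Experienced libraries 3 and 4 were above all others, and libraries 1 and 2 lay inside the naive range. The fitted log2 difference of 2.72 (SE 0.94) was −0.95 without those 2 libraries. Ermap, an erythroid membrane protein, behaved likewise, at 7.14, 6.47, 53.6 and 165 TPM against 1.51 to 16.9 TPM. Gata1 stood at 12.0, 16.1, 39.7 and 75.8 TPM against 5.47 to 22.7 TPM, and Tfrc, the transferrin receptor, at 41.0, 32.6, 86.2 and 79.2 TPM against 24.9 to 49.0 TPM. In naive library 4 each of these 4 genes was at its lowest of the naive group. The globin gene Hbb-bs, named after its values were seen, was at 0 to 6.11 TPM throughout, so RNA of mature red cells was scarce. Whether experienced libraries 3 and 4 held other cells than libraries 1 and 2 was not tested.

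Basophil and mast cell genes and neutrophil genes also had their 2 highest list scores in experienced libraries 3 and 4. Of 17 tested basophil and mast cell genes 12 were higher, with a median log2 difference of 0.47 (0.04 without experienced library 4, and −0.55 without libraries 3 and 4). Il1rl1, the interleukin-33 receptor, stood at 1.68, 2.14, 9.14 and 22.1 TPM in experienced and at 1.88 to 5.23 TPM in naive libraries. Of 9 tested neutrophil genes of 19 listed, 8 were higher, with a median of 0.64 (0.16 without library 4, and −0.02 without both). S100a8, a calgranulin subunit of maturing neutrophils, stood at 9.08, 6.38, 38.8 and 41.6 TPM against 1.81 to 18.8 TPM. The neutrophil list differed from the erythroid one in other libraries: its mean log2 CPM against naive was 0.36, −0.13, −0.18 and −0.06 in naive and 0.34, −0.30, 0.43 and 1.38 in experienced libraries 1 to 4. Ngp, a neutrophil granule protein, stood at 1.68, 1.3, 0.25 and 15.1 TPM in experienced and at 0.56 to 2.29 TPM in naive libraries, so experienced library 3 was its lowest.

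Granulocyte and monocyte priming genes had a median log2 difference of −0.03, and −0.29 without experienced libraries 3 and 4. Elane, neutrophil elastase, stood at 104, 129, 154 and 16.9 TPM in naive and at 50.1, 33.7, 340 and 628 TPM in experienced libraries. The log2 difference of 1.40 was −1.30 without experienced libraries 3 and 4. Mpo, myeloperoxidase, differed by 0.46 and by −0.35. Cd63, a tetraspanin of granules, was lower without overlap, at 116, 104, 109 and 95.7 TPM against 89.9, 93.3, 78.9 and 77.0 TPM. Its log2 difference of −0.41 (SE 0.15) was −0.31 without those 2 libraries.

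Lymphoid priming genes ran the other way in the same libraries. The list's mean log2 CPM against naive was 0.22, 0.15, −0.51 and −0.68 in experienced libraries 1 to 4, and −0.18 to 0.20 in the naive libraries. Dntt, the terminal transferase of early lymphoid progenitors, stood at 112, 104, 105 and 116 TPM in naive and at 158, 146, 81.9 and 29.4 TPM in experienced libraries. In TPM libraries 1 and 2 were above all naive values and libraries 3 and 4 below them. In CPM experienced library 2 (220.4) lay just under naive library 4 (220.8). The log2 difference was −0.18 in all, and 0.35 without libraries 3 and 4. Flt3, the cytokine receptor of lymphoid-primed progenitors, stood at 132, 101, 72.4 and 40.6 TPM in experienced and at 79.8 to 115 TPM in naive libraries. Its log2 difference of −0.21 was 0.20 without libraries 3 and 4. Megakaryocyte and platelet genes were lower in 16 of 24 tested members, with a median of −0.23, and −0.31 without experienced libraries 3 and 4. Itga2b, the platelet integrin CD41, differed by −0.48 (−0.99 to 0.03), and by −0.30 without those libraries.

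**Figure D4:**
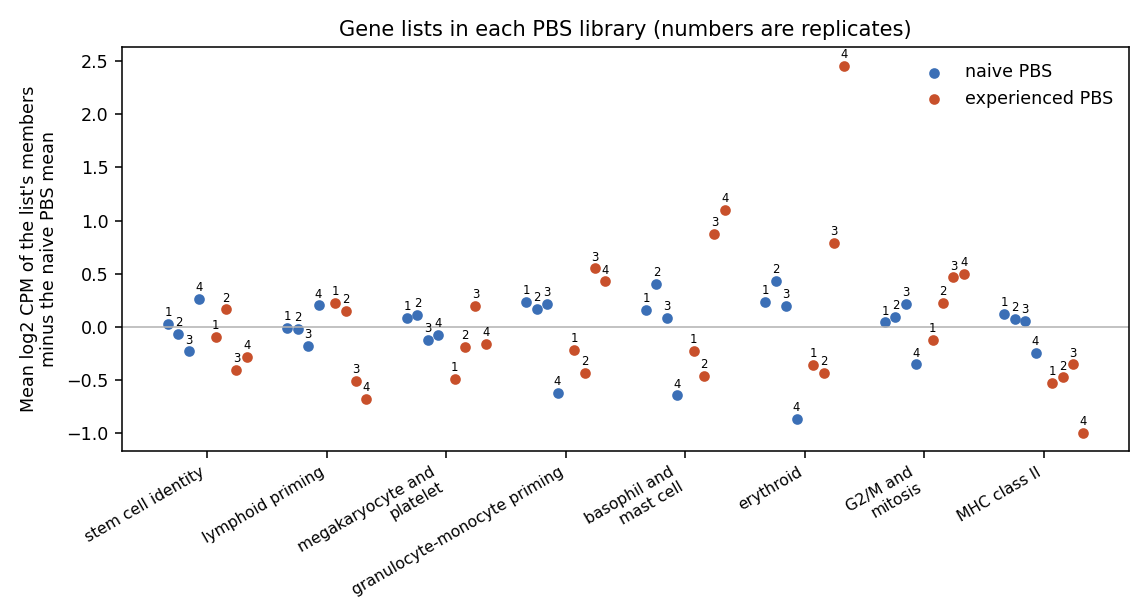
Mean log2 CPM of the members of 8 gene lists, each gene set against its naive PBS mean (vertical axis), in the 8 PBS libraries; each point is 1 library. In the erythroid list experienced libraries 3 and 4 stand at 0.79 and 2.46 and libraries 1 and 2 at −0.35 and −0.43; in the MHC class II list all 4 experienced libraries (−0.99 to −0.35) lie below all 4 naive ones (−0.25 to 0.12).

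Interferon genes had small differences at rest, and their medians were higher without experienced libraries 3 and 4. Of 36 tested interferon-induced genes 22 were higher and 14 lower, with a median log2 difference of 0.01, and 0 were below 0.05 unadjusted. Without experienced libraries 3 and 4, 28 of 36 were higher, with a median of 0.17. By library, the list's mean log2 CPM against naive was 0.07, 0.30, −0.54 and −0.04 in experienced libraries 1 to 4. It was −0.17 to 0.32 in the naive ones. Irf7, which amplifies interferon production, stood at 13.2, 22.6, 16.4 and 19.2 TPM in naive and at 18.0, 25.7, 10.7 and 20.3 TPM in experienced libraries. The groups overlapped throughout, with a log2 difference of 0.01 (−0.62 to 0.64). Ifitm3, an antiviral membrane protein, differed by −0.13 (−0.62 to 0.35). Without those libraries the differences were 0.17 for Irf7 and 0.05 for Ifitm3. Of 14 interferon-gamma GTPases 8 were lower, with a median of −0.03, and without those libraries 12 were higher, with a median of 0.13.

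Genes of other inflammatory pathways had lower values, mostly in experienced libraries 3 and 4. Of 28 tested NF-kB and TNF response genes 20 were lower (median −0.20), and 13 of 15 IL-6, G-CSF and Stat3 response genes were lower (median −0.12). Without experienced libraries 3 and 4 these medians were 0.00 and 0.11. Nfkbia, the inhibitor that NF-kB induces, differed by −0.23 (−0.73 to 0.28), and by −0.03 without those libraries. Ccl2, a monocyte chemokine, was the 1 member of these lists below 0.05 unadjusted, at 2.85, 1.38, 1.53 and 2.16 TPM in naive and 1.41, 0.67, 0.57 and 0.83 TPM in experienced libraries. Socs3, the feedback inhibitor of Stat3, stood at 37.4, 19.1, 10.8 and 7.28 TPM in experienced libraries 1 to 4 and at 17.2 to 19.5 TPM in the naive ones. In TPM the experienced group thus spread to both sides of a narrow naive range. In CPM the naive range was wider, at 29.5 to 44.6, and it held experienced library 2 at 35.5. The log2 difference was −0.08 (−0.87 to 0.71), or 0.49 without experienced libraries 3 and 4. Tlr4, the receptor of lipopolysaccharide (LPS), differed by −0.07 (−0.66 to 0.52). MHC class I genes had 16 of 18 members lower and a median of −0.22, which was 0.03 without experienced libraries 3 and 4.

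Genes of mitosis had higher values in experienced HSPCs, again mainly in 2 libraries. Of 25 tested members 24 were higher and 2 were below 0.05 unadjusted, with a median log2 difference of 0.31. It was 0.17 without naive library 4 and 0.09 without experienced libraries 3 and 4. Mki67, the proliferation antigen, stood at 79.6, 98.1, 117 and 42.6 TPM in naive and at 83.1, 102, 112 and 130 TPM in experienced libraries, which overlapped. The difference was 0.35 on the log2 scale (−0.24 to 0.94), and 0.09 without those libraries. Ccne1 (cyclin E1), which drives entry into S phase, stood at 6.53, 6.85, 17.8 and 30.5 TPM in experienced libraries and at 2.81 to 8.91 TPM in naive ones. Cdkn1c (p57), the inhibitor that keeps stem cells quiescent, differed by −0.03 (−1.01 to 0.94), and the quiescence list by a median of −0.03. Without those libraries Cdkn1c differed by 0.07, and 15 of the 20 quiescence genes were higher, with a median of 0.06. Ndn, a further gene of that list, was lower without overlap, by −1.46 (SE 0.67; −1.21 without those libraries), at levels of at most 1.93 TPM.

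Ribosomal protein genes were lower in 38 of 42 members by a small amount. The median log2 difference was −0.27, and −0.17 without experienced libraries 3 and 4. In 5 members, all lower, the groups did not overlap, and 0 were below 0.05 unadjusted. Rps20, a small subunit protein, stood at 1263, 1051, 1037 and 720 TPM in naive and at 1030, 757, 821 and 444 TPM in experienced libraries, a log2 difference of −0.43 (−0.96 to 0.10), or −0.25 without those libraries. Naive library 1 was the highest of all 8. Mitochondrially encoded genes had 12 of 13 members higher and a median of 0.59, which was 0.04 without experienced library 4 and 0.00 without libraries 3 and 4. The list's mean log2 CPM against naive was 1.21 in experienced library 4 and −0.50 to 0.33 in the other 3.

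Cholesterol synthesis genes were lower in 16 of 19 members, with a median log2 difference of −0.23. It was −0.33, with 0 members higher, without experienced libraries 3 and 4. Mvk, mevalonate kinase, stood at 7.51, 10.2, 9.23 and 7.30 TPM in naive and at 7.08, 6.20, 4.81 and 4.86 TPM in experienced libraries. Every experienced library lay below every naive one, with a log2 difference of −0.69 (SE 0.30, unadjusted p = 0.0367 by edgeR). Msmo1, a demethylating oxidase of the sterol pathway, differed by −0.53 (SE 0.24), and by −0.89 without experienced libraries 3 and 4. Without naive library 4, at 25.3 CPM against 12.6 to 14.7 CPM in the other naive libraries, its difference was −0.25. The list's mean log2 CPM against naive was −0.40 to −0.21 in the experienced libraries and 0.01, 0.04, −0.35 and 0.30 in naive libraries 1 to 4, so naive library 3 overlapped.

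Among stress genes, immediate early genes, which respond to handling, were lower in 22 of 24 members with a median of −0.21. Without experienced libraries 3 and 4, 23 of 24 were higher, with a median of 0.12. The 2 remaining libraries did not agree. Against the naive mean, the list's mean log2 CPM was 0.49, −0.22, −0.95 and −0.50 in experienced libraries 1 to 4. It was −0.37 to 0.28 in the naive ones. Fos stood at 659, 984, 950 and 597 TPM in naive and at 1234, 587, 300 and 531 TPM in experienced libraries. Hmox1, haem oxygenase, was lower in every experienced library, at 2.29, 2.23, 2.84 and 2.14 TPM against 8.04, 6.24, 4.52 and 6.09 TPM. Its log2 difference was −1.53 (SE 0.51, unadjusted p = 0.00825 by edgeR), and −1.58 without experienced libraries 3 and 4. Mt1, a metallothionein, was high in experienced libraries 3 and 4 only, at 172 and 410 TPM against 28.8 and 36.9 TPM in libraries 1 and 2 and 11.2 to 41.3 TPM in naive ones. Of 23 chromatin regulators 16 were higher, with a median of 0.10 (0.06 without experienced libraries 3 and 4), and in 2 of them the groups did not overlap on the CPM scale. These were Kdm6a, an X-linked histone demethylase, with a log2 difference of 0.43 (SE 0.18), and Asxl2, a partner of Polycomb enzymes, with 0.31 (SE 0.15). Without those libraries they were 0.43 and 0.17.

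**Figure D5:**
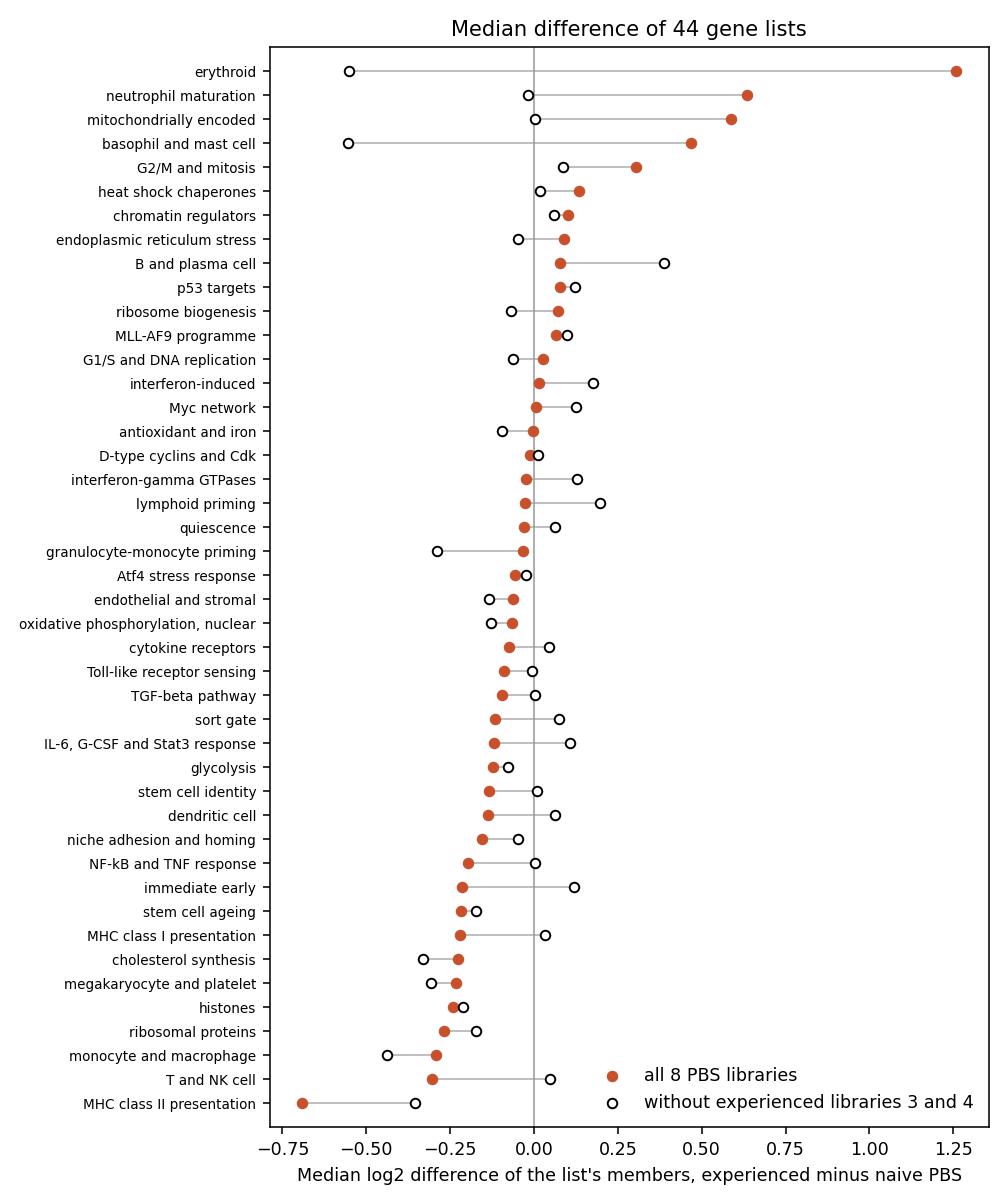
Median log2 difference of experienced minus naive HSPCs after PBS (horizontal axis) over the tested members of 44 gene lists (vertical axis), with all 8 libraries and without experienced libraries 3 and 4. The erythroid median moves from 1.26 to −0.55, and the MHC class II median from −0.69 to −0.35.

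Some genes outside the lists are given here because of their values, which were seen first. Krt18, a keratin, stood at 33.3, 30.8, 29.7 and 29.7 TPM in naive and at 25.8, 24.7, 17.9 and 15.6 TPM in experienced libraries. The groups did not overlap, with a log2 difference of −0.64 (SE 0.17), or −0.40 without experienced libraries 3 and 4. Npdc1, a protein of neural progenitors, stood at 13.4, 14.8, 15.04 and 13.6 TPM against 8.11, 11.7, 4.45 and 4.92 TPM, a log2 difference of −1.25 (SE 0.34), and −0.69 without experienced libraries 3 and 4. Serpinf1, the secreted factor PEDF, was lower by −1.05 (SE 0.30), and Thbd, thrombomodulin, by −0.64 (SE 0.19), both without overlap on the CPM scale. Those were −0.88 and −0.49 without experienced libraries 3 and 4. Rybp, a Polycomb component, was higher without overlap, at 22.01, 20.02, 21.1 and 20.1 TPM against 15.4, 16.1, 19.6 and 12.5 TPM, a log2 difference of 0.35 (SE 0.12). The adjusted p of each of these 5 was at least 0.988 by edgeR's quasi-likelihood test.

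Genes that mark female and male cells were both detected in every library, in unequal amounts. Xist, the RNA of the inactive X chromosome of female cells, stood at 59.4, 98.0, 136 and 51.0 TPM in naive and at 339, 192, 382 and 128 TPM in experienced libraries. Eif2s3y, a Y-linked translation factor, stood at 26.7, 30.6, 29.3 and 34.1 TPM against 9.99, 25.4, 11.0 and 24.8 TPM. In TPM, experienced library 4 lay below naive library 3 for Xist, and on the CPM scale the groups overlapped for neither gene. Experienced libraries 1 and 3 were the 2 with the most Xist and the least Eif2s3y. They also had the most Kdm6a, the X-linked gene named above, at 125 and 120 CPM against 78.0 to 104 CPM in the other PBS libraries. The part of donor sex in the other differences, that of Kdm6a included, was not tested.

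Experienced libraries spread more among themselves than naive ones. The median SD of log2 CPM over genes was 0.31 in the experienced and 0.18 in the naive group, and it was larger in the experienced group for 11439 genes (75.3%). Leaving out 1 experienced library gave 0.25 to 0.32, and leaving out naive library 4 lowered the naive value to 0.13. The spread without both experienced libraries 3 and 4, which stood apart from the others, was not measured. Experienced libraries were also shallower, at 11.0 to 18.5 M expected counts against 16.3 to 22.1 M. The part of depth in the spread was not tested. After LPS the medians were 0.39 in naive and 0.37 in experienced HSPCs.

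The same comparison in the 8 libraries of LPS-injected mice shares no library with the one above. It also called 0 genes by edgeR (smallest adjusted p 0.9999), with 491 below 0.05 unadjusted. Experienced LPS library 4 held the fewest counts (7.72 M) and detected genes (14887) and the largest mitochondrial share (7.30%). H2-Ab1 differed by −0.44 (SE 0.17) after LPS and −0.73 at rest. After LPS its groups overlapped, at 157, 86.3, 82.0 and 85.7 TPM in naive and 85.0, 66.1, 65.7 and 95.25 TPM in experienced libraries. Ciita differed by −0.49 and −1.01, Cd74 by −0.34 and −0.76, and H2-Aa by −0.17 and −1.01. The class II list had 9 of 11 members lower after LPS, with a median of −0.19. Of all tested genes 53.8% were lower after LPS, with a median of −0.02. Hmox1 differed by −1.23 (SE 0.50) after LPS and −1.53 at rest, and Cd63 by −0.35 and −0.41. The Hmox1 groups overlapped after LPS, at 3.40, 5.96, 4.62 and 19.75 TPM in naive and 4.30, 3.13, 2.71 and 6.09 TPM in experienced libraries. Naive library 4 was thus far above the other naive ones. Those of Cd63 did not overlap on the CPM scale. Dntt differed by 1.09 (SE 0.41) after LPS and by −0.18 at rest (0.35 without experienced PBS libraries 3 and 4). Its levels after LPS were low, at 2.06 to 3.36 TPM in naive and 3.43 to 7.83 TPM in experienced libraries. On the CPM scale these groups overlapped.

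Interferon-induced genes were lower in 34 of 36 members after LPS, where 53.8% of all tested genes were lower. Their median log2 difference was −0.45 after LPS, beside −0.02 for all tested genes. It was 0.01 at rest (0.17 without experienced PBS libraries 3 and 4). The list's mean log2 CPM overlapped after LPS, with naive library 2 at 0.59 inside the experienced range of 0.40 to 0.78. The erythroid median was −0.57 after LPS and 1.26 at rest (−0.55 without those libraries), and the cholesterol median 0.11 and −0.23. Irgm1, an interferon-gamma GTPase, differed by −0.46 (SE 0.18) after LPS and by 0.16 at rest. The test of the difference between both comparisons, the interaction, called 0 of 15186 genes by edgeR (smallest adjusted p 0.884), with 695 below 0.05 unadjusted. For no gene above is the difference between experienced and naive HSPCs therefore shown to change between rest and LPS. Changes of level from rest to LPS within a group were not tested here. By the same edgeR fit the interaction of H2-Ab1 was 0.29 (unadjusted p = 0.242), that of Dntt 1.27 (unadjusted p = 0.0337) and that of Irgm1 −0.62 (unadjusted p = 0.0263).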

How the data were processed

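RNA was measured in sorted HSPCs from 16 biological replicates, 4 per group, of which the 8 after PBS are described. The submitters' processing notes name Trim Galore 0.6.7, STAR 2.7.10a, RSEM 1.3.1 and the build GRCm38. The annotation release was not given in the sources used here, nor was the strand setting. The authors deposited, per the file headers, RSEM expected counts (estimates, often with decimals) and TPM (scaled for length and library). TPM depends on how much RNA of other kinds a library holds: protein-coding genes took 54.6% to 68.0% of TPM in these 8 libraries. Levels are therefore given in TPM, and tests and overlaps use CPM. The labels list 2 technical replicates per biological one, with 1 table for both, and name a droplet single-cell kit although the tables are bulk.

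Expected counts were rounded, and edgeR's expression filter by group kept 15186 genes. In R 4.3.3, edgeR 4.0.16 took all 16 libraries into 1 quasi-likelihood fit of 4 group means with TMM scaling (12 residual degrees of freedom, common biological coefficient of variation 0.306) and Benjamini-Hochberg adjustment at 0.05. SEs and 95% intervals came from the fit, and the scripts were tested on simulated data. Alternatives were DESeq2 1.42.0, limma 3.58.1 (voom with quality weights, and log2(TPM + 1) or log2(TPM + 0.1)), other scalings and filters, the mitochondrial share as a covariate, a replicate block and libraries left out. Replicate numbers did not pair the groups: deviations of same-numbered libraries correlated at −0.10 to 0.05. No 2 libraries of a group agreed within sampling noise. Symbols came from GENCODE GRCm38 (45143 of 45706 identifiers matched). Families with near-identical copies (H2, Ly6, Mt, globin and immunoglobulin genes), and overlapping genes, are uncertain.

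Named genes were to be the 14 called genes furthest up and the 14 furthest down whose groups do not overlap, up to 6 each way at a mean log2 CPM of at least 6, up to 4 members of lowest p of each list described, and 28 genes by name. With 0 called, the last 2 applied. Some of these genes are left out of the report. Genes named outside the rule are marked as such. The 44 lists, the genes and the groups were chosen with earlier results of these data known.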

Additional observations from a re-analysis of the deposited data

Results flagged for a closer look

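In 20 of 340 groups of 4 libraries looked at (5.88%), 1 library lay far from the other 3, by its gap over the group's range. Chance flags about 1 group in 20 if the groups are independent. These groups reuse the same 8 libraries, and many of the flags fell on naive library 4. The share therefore cannot tell whether the flags arose by chance. In the naive group library 4 was low for Mt1 (3.953 CPM, others from 10.7 to 11.9), Klf1 (1.797 CPM, others 9.20 to 10.3), Tnfaip2 (27.793 CPM, others 50.4 to 54.1) and Fcgr3 (2.755 CPM, others 5.31 to 5.80). It was high for Msmo1 (25.337 CPM, others 12.6 to 14.7) and Gbp6 (10.243 CPM, others 4.64 to 5.33). Its 17626 detected genes were below the 19514 to 19726 of the other naive libraries. Its mean log2 CPM against the naive mean was also low for the granulocyte and monocyte priming list (−0.6235), the heat shock chaperones (−0.5761) and the Atf4 stress list (−0.2132).

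Naive library 1 was low for Taf2 (52.078 CPM, others 54.6 to 55.1) and high for Rps20 (693.86 CPM, others 498 to 530). Naive library 3 was high for Gfi1b (36.733 CPM), Myb (669.303 CPM) and the chromatin regulator list (0.0827 against the naive mean). In the experienced group, library 1 was high for Kit (732.798 CPM, others 612 to 632). Library 3 was high for Thbs1 (56.083 CPM, others 0.837 to 1.86), a matrix protein of platelets and monocytes. Library 4 was high for Cmpk2 (45.467 CPM, others 23.7 to 27.1) and Ngp (13.482 CPM, others 0.20 to 1.36) and low for Cd34 (535.842 CPM, others 731 to 767).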

How the results depend on the processing

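The count of 0 called genes held under all but 4 of 64 alternatives to the counts in each direction: DESeq2 called 2 higher genes (Pet117 and Gm28539), limma-voom with quality weights 2 lower (H2-Aa −1.18, adjusted p = 0.0270; H2-Ab1 −0.87, adjusted p = 0.0145), limma on log2(TPM + 1) 1 lower (Rbakdn), and DESeq2 1 higher gene for the interaction (1500009L16Rik). Leaving out 1 library at a time called 0 in each case, with a smallest adjusted p of 0.205. The fit with a replicate block also called 0, with 341 genes below 0.05 unadjusted against 451, and the replicate numbers did not pair the libraries. Genes below 0.05 unadjusted ranged from 162, without experienced libraries 3 and 4, to 1215, with voom weights; they were 972 with the 8 PBS libraries only, 842 with no low-count filter and 267 on log2(TPM + 0.1). Of 114 genes 75 kept their sign under every alternative run, and 15 of 44 list medians did, MHC class II, ribosomal protein and cholesterol genes among them. The sign of 26 of the 114 turned with voom weights and of 33 without experienced libraries 3 and 4. Of those, 8 in each case were below 0.05 unadjusted in either fit. With voom weights these were Car1 (−0.56), Elane (−1.07), Ermap (−0.54), Gata1 (−0.14), Il1rl1 (−0.31), Klf1 (−0.45), Mt2 (−0.53) and Thbs1 (−0.19), and without experienced libraries 3 and 4 Car1 (−0.95), Ermap (−0.86), Fcgr3 (−1.13), Gata1 (−0.25), Il1rl1 (−0.55), Klf1 (−0.60), Mt2 (−1.06) and Thbs1 (−0.53). The other 25 turns without those libraries include Elane (−1.30), Lcn2 (−1.13), Epor (−0.55), Ly6c2 (−0.64) and Ms4a2 (−0.68). Thbs1 ranged from −0.26 to 3.60 when 1 library was left out. Voom weights were 0.35 and 0.34 for experienced PBS libraries 3 and 4, and 0.69 to 4.63 for the other PBS libraries. Experienced LPS library 4 (0.16) and naive LPS library 2 (0.25) had lower ones. The cause of the turns was not tested. Genes below a mean log2 CPM of 0 had a median interval half-width of 1.61, so differences in them were not detectable at this depth unless large.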
